A study of Rattus norvegicus with 9 samples.

Results

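The genes described here are 8 gates of mitotic entry: the CDC25 phosphatase genes Cdc25a, Cdc25b and Cdc25c, the Polo-like kinase genes Plk1, Plk2, Plk3 and Plk4, and the kinase gene Wee1. The rule that selects them uses gene symbols alone, and it was written with earlier results of these data known. All 8 were found among the 28935 genes of the count table, and all 8 had enough counts to be tested with the 14151 genes that passed the filter on low counts. Messenger RNA was sequenced from primary neonatal rat ventricular myocytes, heart muscle cells isolated from Sprague-Dawley pups aged 1 or 2 days. The cells were kept for 48 h in medium with 3% fetal bovine serum, and each well then received 8 µL of adenovirus in 1 mL of medium without serum for a further 48 h. The virus carried GFP, Nfya or Nfe2l1, with 3 libraries each, so the GFP controls share the infection and the serum withdrawal with both other groups. No source used here gives the virus dose per cell or the promoter of the transgenes. Nothing in the labels tells whether replicates are separate cultures; p-values therefore reflect the variation among these 9 libraries, and that variation could be purely technical.

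CDK1 bound to cyclin B drives a cell into mitosis. WEE1 holds the complex inactive by adding inhibitory phosphates, and the CDC25 phosphatases remove them. PLK1 favours the switch at several points, since it activates CDC25C and marks WEE1 for destruction, and it later acts at centrosomes, kinetochores and the cleavage site. PLK4 controls centriole duplication, whereas PLK2 and PLK3 are best known as genes induced by growth factors and stress. Heart muscle cells leave the cell cycle soon after birth, and some of these gates are among the genes that are shut down in that period. NFYA is the regulatory subunit of NF-Y, which binds CCAAT boxes, and NFE2L1 is a cap'n'collar factor known for inducing proteasome genes.

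The promoters of 3 of these genes are shown because NF-Y binds the letters CCAAT and because many genes of the G2 and M phases pair such a box with a CHR, the cell cycle homology region read here as TTTGAA or TTCGAA. Sequences are from RefSeq (rat build GRCr8), run 5′ to 3′ on the strand of the gene, and have both motifs in capitals. A CCAAT box on the other strand reads ATTGG. The stretches are chr18:26630293-26630542 on the minus strand for Cdc25c, chr1:186147420-186147669 on the plus strand for Plk1 and chr3:138859923-138860172 on the plus strand for Cdc25b. Those of Cdc25c and Cdc25b are the 250 bases before the annotated start, and that of Plk1 runs to 12 bases past it.
Cdc25c: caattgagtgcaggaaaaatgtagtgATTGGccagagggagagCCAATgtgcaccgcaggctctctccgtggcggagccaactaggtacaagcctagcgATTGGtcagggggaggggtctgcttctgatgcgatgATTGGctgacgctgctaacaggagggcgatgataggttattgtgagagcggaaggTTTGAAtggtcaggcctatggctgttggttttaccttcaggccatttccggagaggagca
Plk1: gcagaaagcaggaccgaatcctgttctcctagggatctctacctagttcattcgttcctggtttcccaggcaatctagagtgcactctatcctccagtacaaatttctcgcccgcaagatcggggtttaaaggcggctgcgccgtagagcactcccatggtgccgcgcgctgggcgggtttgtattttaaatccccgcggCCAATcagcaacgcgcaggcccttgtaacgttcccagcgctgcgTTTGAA
Cdc25b: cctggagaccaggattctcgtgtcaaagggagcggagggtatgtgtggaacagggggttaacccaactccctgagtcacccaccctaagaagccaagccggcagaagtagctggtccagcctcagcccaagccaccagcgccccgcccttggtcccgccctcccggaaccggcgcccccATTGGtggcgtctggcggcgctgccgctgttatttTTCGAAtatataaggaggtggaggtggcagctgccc

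Cdc25c carried 4 CCAAT boxes, whose first bases lie at -224, -207, -151 and -115 from the start, and 1 CHR at -60. Plk1 carried 1 CCAAT box at -38 and a CHR at 7, and Cdc25b 1 CCAAT box at -71 and a CHR at -36. From the first base of the nearest CCAAT box to the first base of the CHR the distance was 55, 44 and 35 bases in Cdc25c, Plk1 and Cdc25b. Promoter windows (250 bases before and 50 after the start) were found for 7 of the 8 genes, all but Wee1. A CCAAT box on either strand stood in 5 of these 7 (Cdc25a, Cdc25b, Cdc25c, Plk1 and Plk2), against 37.5% of 33465 rat windows of the same length. A CHR on either strand stood in 4 (Cdc25b, Cdc25c, Plk1 and Plk4), against 19.7% of windows, and both motifs in 3, against 7.95%. At least 4 CCAAT boxes, as in Cdc25c, were found in 0.675% of windows. The E2F letters TTTCGCGC or TTTGGCGC were found in Cdc25a alone, at -236, and in 0.792% of windows. The core of the antioxidant response element, TGACNNNGC, was found in Cdc25c alone, at -109, and in 12.1% of windows. The Plk3 window held none of these letters. No motif searched overlapped another in these 7 windows. These matches describe letters near an annotated start, and whether that start is the one used in these cells was not tested.

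Library totals ranged from 5712123 counts (GFP replicate 3) to 7310774 counts (Nfe2l1 replicate 3). Levels are given as CPM, library-size-scaled counts with TMM factors of 0.986 to 1.009, and as the deposited RPKM where genes are compared with each other. The genes named in the virus labels were checked first. Nfya stood at 77.8 to 81.9 CPM in GFP, at 88.3 to 89.6 in the Nfya-labelled and at 90.5 to 94.8 in the Nfe2l1-labelled libraries. Nfe2l1 stood at 234.2 to 246.3 CPM in GFP, at 217.6 to 227.1 in the Nfya-labelled and at 232.6 to 244.5 in the Nfe2l1-labelled libraries. Nfya was called higher than GFP with either virus (log2 fold change 0.15 ± 0.04 with Nfya and 0.20 ± 0.04 with Nfe2l1). Nfe2l1 was called lower with Nfya (-0.11 ± 0.03) and not called with Nfe2l1 (-0.01 ± 0.03, adjusted p = 0.856). The call of Nfya with Nfya was lost with DESeq2, and that of Nfe2l1 with Nfya in 6 of 22 alternatives, among them without GFP replicate 1 or Nfe2l1 replicate 1 or 3. Since neither transcript was highest in its own group beyond the spread, each group is called by its label, on which all directions below depend. Cardiomyocyte markers were abundant in all groups: 10 cardiomyocyte marker genes, among them Myh6, Tnnt2 and Ryr2, summed to 3389 to 3769 CPM in GFP, 3625 to 3677 in the Nfya-labelled and 3262 to 3601 in the Nfe2l1-labelled libraries.

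At baseline the 8 genes differed widely in level. In GFP, Plk2 had the highest level per gene length, at 106.8 ± 4.76 RPKM (SD, n = 3 for every group). Wee1 followed at 49.8 ± 1.34, Cdc25a at 46.7 ± 0.955, Plk4 at 21.8 ± 0.991 and Cdc25b at 18.9 ± 1.34 RPKM. Plk1 (10.9 ± 0.836), Cdc25c (9.27 ± 1.23) and Plk3 (8.92 ± 0.888) were lowest, and neighbours among these 3 overlapped in range, whereas none of the higher ones overlapped with its neighbour. This order changed with the virus. In the Nfya-labelled libraries Plk1 (19.1 ± 1.40 RPKM) reached the range of Cdc25b. In the Nfe2l1-labelled libraries Cdc25b (35.4 ± 1.26) reached that of Wee1 (34.2 ± 0.247), and Plk1 was the lowest of the 8 at 10.1 ± 0.900 RPKM.

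**Figure D1:**
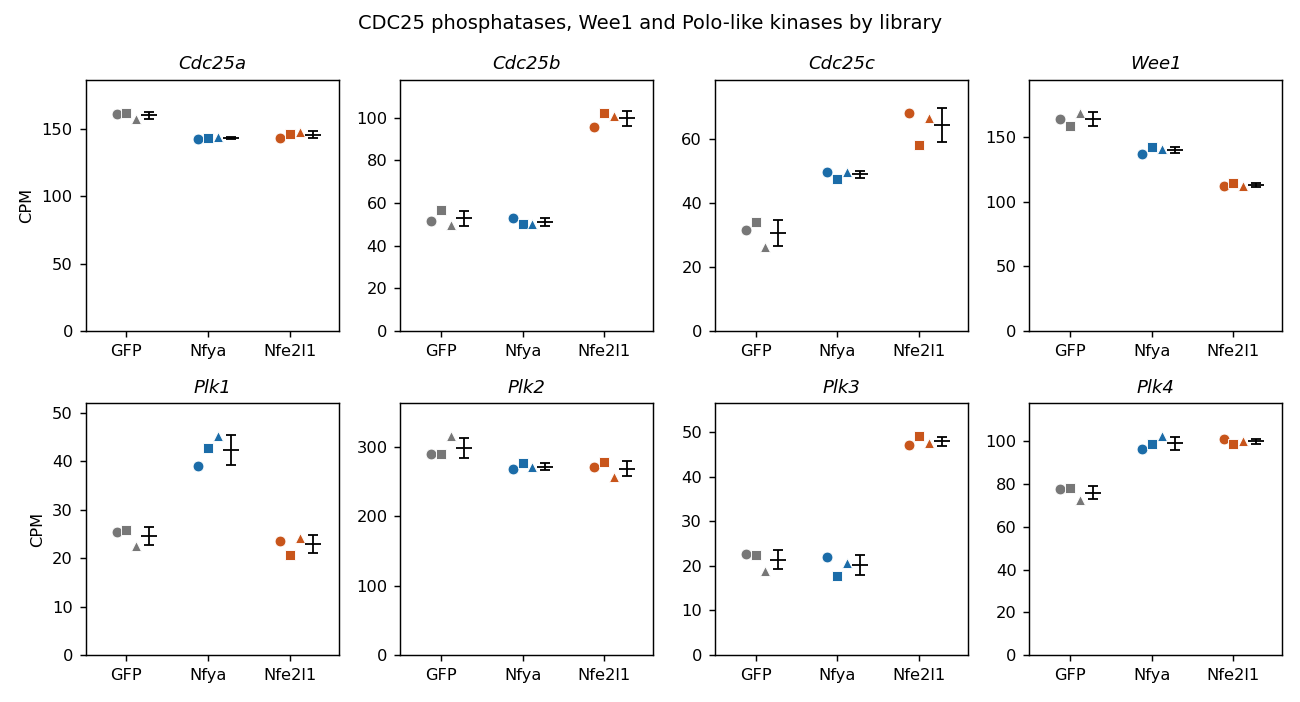
Level of each gene (CPM, vertical axes from 0) in the 9 libraries, by virus. Circles, squares and triangles are replicates 1, 2 and 3, and black bars are mean ± SD (n = 3). Plk1 stands out in the Nfya-labelled libraries, Cdc25b and Plk3 in the Nfe2l1-labelled ones, and Wee1 steps down from GFP (163.7 CPM) through Nfya (139.8) to Nfe2l1 (112.8).

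The Nfya-labelled libraries were first compared with GFP. Plk1 and Cdc25c rose most, Plk4 rose less, and Wee1, Cdc25a and Plk2 fell slightly. Of the 8 genes, 3 were called higher and 3 lower, where 52.2% of all genes tested were called in either direction, so the number of calls is near the background. The libraries of both groups did not overlap for 6 of 8, against 61.6% of all genes. A call means a Benjamini-Hochberg adjusted p below 0.05 over all genes tested in edgeR's quasi-likelihood test. The share called and changed at least 1.5-fold was 2 of 8, against 17.7% of all genes. The median log2 fold change of the 8 genes was -0.08, and that of all genes -0.02.

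The Nfe2l1-labelled libraries were compared with the same GFP controls. Plk3, Cdc25c and Cdc25b rose 1.88-fold to 2.23-fold, Plk4 rose less, Wee1 fell, and Cdc25a and Plk2 fell slightly. Here 4 of the 8 were called higher and 3 lower, against 58.6% of all genes in either direction, and groups did not overlap for 7 of 8, against 64%. At least 1.5-fold changes were called for 3 of 8, against 21.8% of all genes. The median log2 fold change was 0.14, and that of all genes -0.01.

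A direct comparison sets the 2 factor viruses against each other. In it Plk1 and Wee1 were higher with Nfya, and Plk3, Cdc25b and Cdc25c higher with Nfe2l1. These 2 calls higher and 3 lower compare with 25.2% and 25.4% of all genes (50.6% together). Groups did not overlap for 5 of 8, against 60%, and 3 of the 8 were called and differed at least 1.5-fold, against 14.8% of all genes. The median log2 difference of the 8 genes was -0.02, and that of all genes 0.01. Comparisons of each virus with GFP use the same 3 control libraries.

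**Figure D2:**
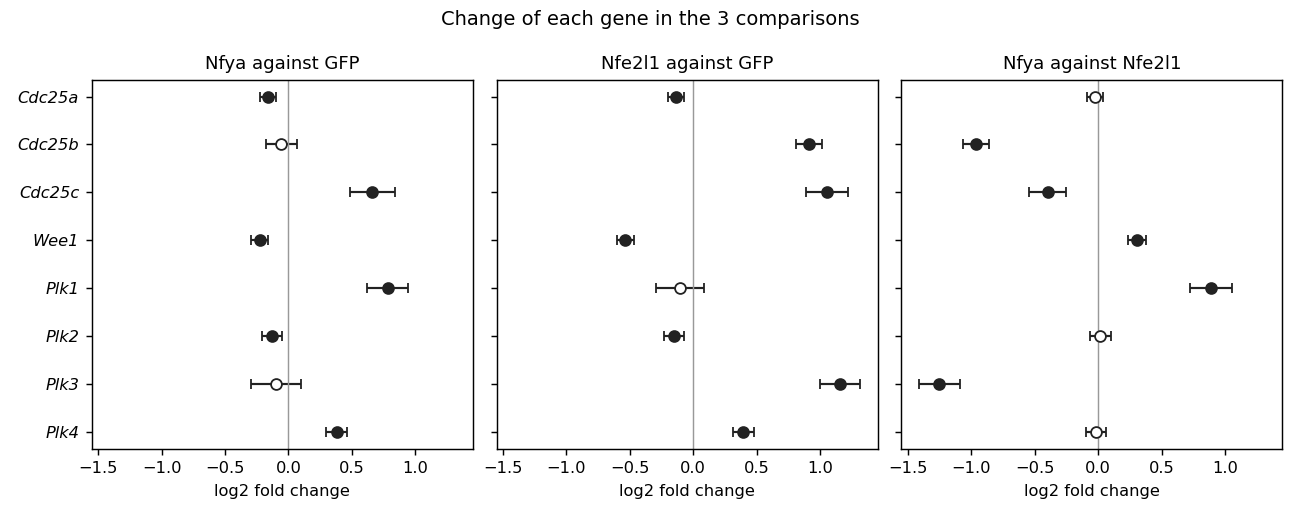
Log2 fold change of each gene (horizontal axis) in the 3 comparisons. Bars are 95% intervals from the edgeR fit, and filled points passed an adjusted p of 0.05. Plk1 and the pair Cdc25b and Plk3 lie on opposite sides of 0 in the direct comparison (0.89, -0.97 and -1.25).

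Cdc25a, the phosphatase that also acts on CDK2 at the start of DNA synthesis, was slightly lower with either virus. Its level was 161.2, 162.2 and 157.5 CPM in GFP replicates 1 to 3, 142.8, 143.0 and 144.2 in the Nfya-labelled and 143.2, 146.2 and 148.1 in the Nfe2l1-labelled libraries. All 6 libraries of the factor viruses lay below all 3 of GFP. The fall was by 0.16 ± 0.03 on the log2 scale (SE, adjusted p = 2.15e-04) with Nfya and by 0.14 ± 0.03 (adjusted p = 7.42e-04) with Nfe2l1. DESeq2 did not call the second (adjusted p = 0.0509, range over the 22 alternatives 5.83e-04 to 0.0509). Between the 2 factor viruses the 95% interval of the log2 difference ran from -0.09 to 0.04, and the libraries overlapped (adjusted p = 0.599).

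Cdc25b, the phosphatase that acts first on CDK1 at the centrosome, was higher with Nfe2l1. It stood at 51.8, 56.9 and 49.9 CPM in GFP, at 53.03, 50.2 and 49.96 with Nfya and at 95.8, 102.4 and 100.8 with Nfe2l1. The Nfya-labelled libraries lay within the range of GFP, and all 3 Nfe2l1-labelled libraries lay far above both. The rise with Nfe2l1 was 1.88-fold (log2 fold change 0.91 ± 0.05, adjusted p = 2.52e-10). With Nfya the log2 difference from GFP was -0.06 with a 95% interval from -0.18 to 0.07 (adjusted p = 0.488), and without GFP replicate 2 it turned to 0.03. Nfe2l1-labelled libraries were 1.95-fold above the Nfya-labelled ones (log2 difference Nfya minus Nfe2l1 -0.97 ± 0.05, adjusted p = 2.03e-10).

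Cdc25c, the phosphatase that PLK1 activates at mitotic entry, was higher with both. Its values were 31.7, 34.3 and 26.4 CPM in GFP, 49.8, 47.7 and 49.7 with Nfya and 68.4, 58.3 and 66.8 with Nfe2l1. The 3 groups formed separate steps with no overlap, and GFP replicate 3 was the lowest library. GFP replicate 3 was also the lowest GFP library for Cdc25a, Cdc25b, Plk1, Plk3 and Plk4, and the highest for Plk2 and Wee1. This library had the lowest total count of the 9. The rise was 1.58-fold with Nfya (log2 fold change 0.66 ± 0.08, adjusted p = 6.25e-06) and 2.08-fold with Nfe2l1 (1.06 ± 0.08, adjusted p = 1.01e-08). The difference between the factor viruses was itself called, at -0.40 ± 0.07 (adjusted p = 1.55e-04). Its promoter is the one shown above with 4 CCAAT boxes and a CHR, and a link of these letters to the rise was not tested.

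Taking the 3 phosphatase genes per gene length, their sum was 71.3 to 78.1 RPKM in GFP, 74.7 to 76.4 with Nfya and 95.6 to 100.01 with Nfe2l1. The sum with Nfya lay within the GFP range, while its make-up moved. Cdc25a gave 60.7% to 64.0% of the sum in GFP, 55.1% to 56.4% with Nfya and 43.3% to 44.1% with Nfe2l1. Cdc25b gave 24.6% to 26.0%, 23.8% to 25.0% and 35.4% to 37.8% in the same order. Cdc25c went from 11.1% to 13.2% in GFP to 19.4% to 19.98% with Nfya and 18.1% to 21.3% with Nfe2l1. The share of Cdc25c lay above GFP with either factor, and its ranges overlapped between them, whereas the share of Cdc25b stood apart with Nfe2l1 only. These shares are descriptions, with no test.

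Wee1, the kinase that opposes the CDC25 phosphatases, was lower with both. It stood at 163.8, 158.5 and 168.8 CPM in GFP, at 137.0, 141.9 and 140.3 with Nfya and at 112.1, 114.3 and 112.1 with Nfe2l1. No library of one group reached the range of another. The fall was by 0.23 ± 0.03 with Nfya (adjusted p = 1.74e-05) and by 0.54 ± 0.03 with Nfe2l1 (adjusted p = 1.12e-09), and the 2 factor viruses differed by 0.31 ± 0.03 (adjusted p = 1.20e-06). The summed CDC25 level over the Wee1 level, both in RPKM, was 1.40 to 1.61 in GFP, 1.71 to 1.81 with Nfya and 2.78 to 2.91 with Nfe2l1. These ratios are of transcripts and carry no measure of enzyme activity.

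**Figure D3:**
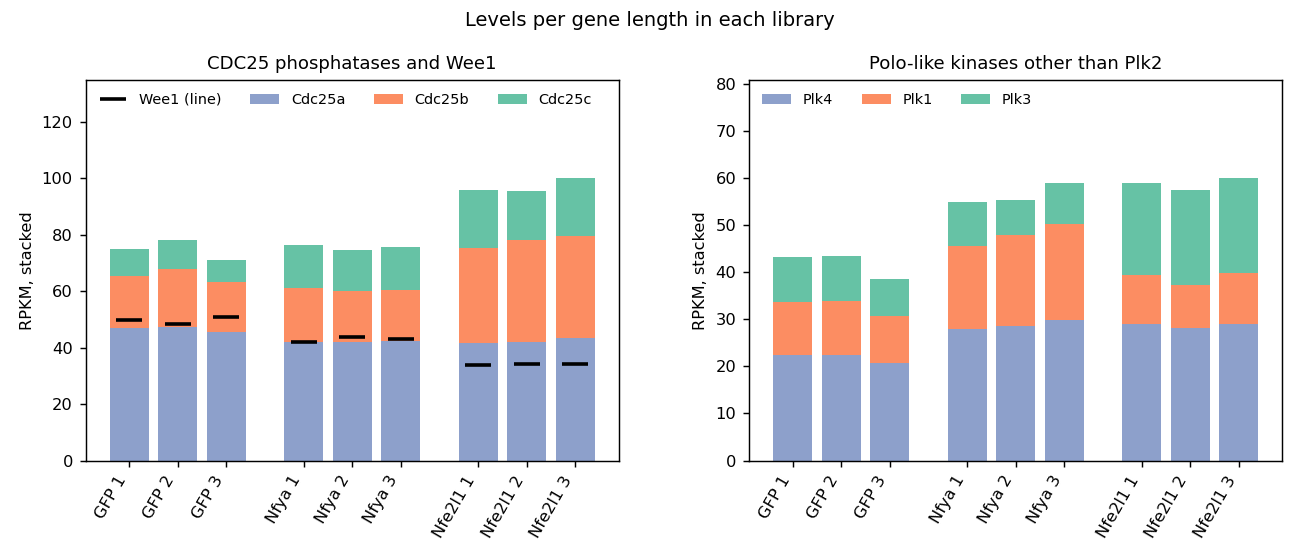
RPKM of each gene in the 9 libraries, stacked. Left, the 3 CDC25 genes with Wee1 as a black line, and right, Plk4, Plk1 and Plk3 without Plk2. With Nfe2l1 the Wee1 line falls to 33.9 to 34.4 RPKM while the CDC25 stack reaches 95.6 to 100.01, and the PLK stacks of both factor viruses are alike in height but differ in their Plk1 and Plk3 parts.

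Plk1, the kinase of mitotic entry, spindle assembly and cytokinesis, was higher with Nfya. It stood at 25.4, 25.7 and 22.5 CPM in GFP, at 39.1, 42.9 and 45.2 with Nfya and at 23.6, 20.7 and 24.1 with Nfe2l1. All 3 Nfya-labelled libraries were above the other 6, and GFP and Nfe2l1 overlapped. The rise was 1.72-fold (log2 fold change 0.78 ± 0.08, adjusted p = 3.82e-07) against GFP and 1.85-fold (0.89 ± 0.08, adjusted p = 9.85e-08) against Nfe2l1. With Nfe2l1 the 95% interval of the log2 change from GFP ran from -0.30 to 0.08 (adjusted p = 0.333). Plk1 was counted thinly, with 127 to 303 counts per library.

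Plk4, the kinase of centriole duplication, was higher with both. Its values were 77.5, 78.0 and 72.4 CPM in GFP, 96.4, 98.6 and 102.5 with Nfya and 101.2, 98.9 and 100.2 with Nfe2l1. The factor viruses overlapped with each other and not with GFP. The rise was 1.30-fold with Nfya (log2 fold change 0.38 ± 0.04, adjusted p = 7.52e-07) and 1.31-fold with Nfe2l1 (0.39 ± 0.04, adjusted p = 3.58e-07). The 95% interval of the log2 difference between them ran from -0.09 to 0.06 (adjusted p = 0.830).

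Plk3, a stress-responsive member of the family, was higher with Nfe2l1. It stood at 22.7, 22.5 and 18.9 CPM in GFP, at 21.9, 17.6 and 20.7 with Nfya and at 47.1, 49.1 and 47.6 with Nfe2l1. All 3 Nfe2l1-labelled libraries lay far above the other 6, and GFP and Nfya overlapped. The rise was 2.23-fold (log2 fold change 1.16 ± 0.08, adjusted p = 2.48e-09), the largest of the 8 genes in that comparison, and 10.1% of all genes changed more. Against the Nfya-labelled libraries the Nfe2l1-labelled ones were 2.38-fold higher (log2 difference Nfya minus Nfe2l1 -1.25 ± 0.08, adjusted p = 1.65e-09). With Nfya the 95% interval of the log2 change from GFP ran from -0.29 to 0.10 (adjusted p = 0.444). Plk3 was also counted thinly, with 107 to 152 counts per library in GFP, 116 to 143 with Nfya and 303 to 349 with Nfe2l1.

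Plk2, an early growth factor response gene, had the most counts of the 8 genes and was slightly lower with either virus. It stood at 289.3, 290.0 and 315.3 CPM in GFP, at 267.8, 276.4 and 270.5 with Nfya and at 270.5, 277.6 and 257.0 with Nfe2l1. All factor virus libraries lay below GFP, and GFP replicate 3 was the highest. The fall was by 0.15 ± 0.04 with Nfe2l1 (adjusted p = 0.00245). With Nfya it was by 0.13 ± 0.04 (adjusted p = 0.00710), but this call was lost with genes of at least 5 mean CPM (0.0551), with limma on log2(RPKM + 0.1) (0.0506), with only the 6 libraries compared (0.0501) and without Nfe2l1 replicate 1 (0.0660). Over the 22 alternatives its adjusted p ran from 0.00126 to 0.0660. Plk2 reached 0.706 counts per base of gene length, while the other 7 genes stayed at or below 0.328. Genes above 0.5 numbered 708 in the series, and none exceeded a mean of 1.45.

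Plk1 to Plk4 together summed to 147.0 to 150.8 RPKM in GFP, 151.9 to 156.9 with Nfya and 152.7 to 155.8 with Nfe2l1. Plk2 gave 70.6% to 74.4% of that sum in GFP. With Plk2 left out, Plk1, Plk3 and Plk4 summed to 38.6 to 43.4 RPKM in GFP, 54.9 to 58.9 with Nfya and 57.5 to 59.9 with Nfe2l1. These sums without Plk2 overlapped between the factor viruses, but the shares of Plk1 and Plk3 in them did not. Plk1 gave 32.1% to 34.8% of the sum with Nfya and 15.9% to 18.1% with Nfe2l1, against 25.9% to 26.5% in GFP. Plk3 gave 13.4% to 16.8% with Nfya and 33.1% to 35.2% with Nfe2l1, against 20.5% to 21.96% in GFP. Plk4 stayed between 48.5% and 53.7% of the sum in all 9 libraries.

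The spread between libraries was within 1.5 times of the counting error, in either direction, in 11 of the 24 values (8 genes in 3 groups), wider in 4 and narrower in 9. The 4 wider ones were Cdc25c and Plk2, each in GFP and with Nfe2l1. For Plk3 in GFP the coefficient of variation was 9.85%, where counting alone gives 8.59%, and for Plk1 in GFP it was 7.33% and 8.02%. The widest spread was that of Cdc25c in GFP, 13.1% where counting gives 7.14%. Cdc25a in GFP varied by 1.57%, below the 3.14% that independent counts would give.

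The authors' deposited tables give the same direction for the 8 genes. They hold log2 fold changes of 0.82 for Plk1 and 0.70 for Cdc25c in the Nfya comparison, and 1.16 for Plk3, 1.06 for Cdc25c, 0.91 for Cdc25b and -0.54 for Wee1 in the Nfe2l1 comparison. At an FDR below 0.05 the authors' deposited tables call 6 of the 8 with Nfya and 7 with Nfe2l1. Over these 16 values the log2 fold changes of the authors' deposited tables and those computed here differed by at most 0.04. In the Nfya comparison the deposited values lay above those here for all 8 genes, by 0.0351 (Plk2) to 0.0367 (Plk3). In the Nfe2l1 comparison the largest difference was 0.0017 (Cdc25c). The deposited Nfya falls of Plk2 and Cdc25a were thus smaller than those here, at -0.10 and -0.13.

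The other genes of mitotic entry and its checks form a list of 76 genes in 14 groups by role, of which 73 were found and tested. Nfya, named in the virus labels, is one of them and is counted below. With Nfya against GFP, 33 of these 73 were higher and 10 lower, where 24.3% and 27.9% of all genes were. Without GFP replicate 1, or without Nfya replicate 1, 6 were lower. With Nfe2l1 against GFP, 13 were higher and 34 lower (22 lower with DESeq2), where 28.9% and 29.7% of all genes were. In the direct comparison 37 were higher with Nfya and 9 higher with Nfe2l1, where 25.2% and 25.4% of all genes were. The median log2 fold changes of the list were 0.03, -0.11 and 0.22 in the 3 comparisons, against -0.02, -0.01 and 0.01 over all genes.

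CDK1 and its cyclins were higher with Nfya, where Plk1 was higher too. Cdk1, Ccnb1 (cyclin B1) and Ccna2 (cyclin A2) were all called higher with Nfya (24.3% of all genes) and all called lower with Nfe2l1 (29.7%). Cdk1 stood at 41.8 CPM in GFP, 66.03 with Nfya and 37.1 with Nfe2l1 (log2 fold changes 0.66 ± 0.04 and -0.17 ± 0.05). The lower calls of Cdk1 and Ccna2 with Nfe2l1 were each lost in 9 of 22 alternatives, among them DESeq2 and leaving out GFP replicate 3 or any 1 of the Nfe2l1-labelled libraries. Ccnb1 stood at 33.4, 47.6 and 26.2 CPM in the same order (0.50 ± 0.07 and -0.36 ± 0.08). With Nfe2l1 Cdc25c was thus higher while the transcripts of the complex that its product acts on were lower. Pkmyt1, the membrane-bound kinase that shares the inhibitory task of WEE1, rose with Nfya (log2 fold change 0.55 ± 0.12) and fell with Nfe2l1 (-0.68 ± 0.14), from 13.1 CPM in GFP.

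All 3 genes of PLK1 activation were higher with Nfya and lower with Nfe2l1: Bora, which exposes PLK1 to its activating kinase, changed by 0.53 ± 0.09 and -0.32 ± 0.10, and the spindle assembly gene Tpx2 by 0.55 ± 0.05 and -0.30 ± 0.05. With Nfe2l1 the call of Bora was lost in 3 of 22 alternatives (DESeq2, a threshold of 0.01 and without Nfe2l1 replicate 3) and that of Aurka in 7, among them without GFP replicate 1 or 2 or Nfe2l1 replicate 1. All 4 genes of the Aurora B complex were higher with Nfya (Aurkb by 0.92 ± 0.05), and 2 were lower with Nfe2l1 (Incenp by -0.25 ± 0.05). All 7 partners of PLK1 at the kinetochore and the midzone were higher with Nfya, with the checkpoint kinase gene Bub1 at 0.77 ± 0.04 and the midzone motor gene Kif20a at 0.53 ± 0.04. With Nfe2l1 1 of these 7 was higher and 2 lower. In the direct comparison all 7 were called higher with Nfya, as Plk1 was. Of all genes, 24.3% were called higher with Nfya, and 28.9% higher and 29.7% lower with Nfe2l1. The share of all genes called higher with Nfya in the direct comparison was 25.2%.

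Partners of PLK4 in centriole assembly were mixed. Of 5 tested, 3 were higher with Nfya (24.3% of all genes), while with Nfe2l1 2 were higher and 3 lower (28.9% and 29.7% of all genes). Stil, the scaffold that activates PLK4, rose by 0.76 ± 0.06 with Nfya and by 0.20 ± 0.06 with Nfe2l1, the second call being lost in 4 of 22 alternatives, among them without GFP replicate 3 or Nfe2l1 replicate 3. Cenpj, a regulator of centriole length, rose by 0.21 ± 0.05 with Nfya and fell by 0.36 ± 0.05 with Nfe2l1. In the direct comparison 4 of the 5 were called higher with Nfya (25.2% of all genes), and Plk4 was not called.

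Genes that act on mitotic entry and exit after transcription moved in part. Of 5 genes around the Greatwall kinase, 1 was higher and 1 lower with Nfya (24.3% and 27.9% of all genes). With Nfe2l1 2 were higher and 1 lower (28.9% and 29.7%). The lower one, Ppp2r2a, lost its call in 16 and 7 of the 22 alternatives. Of 5 ubiquitin ligase genes, 3 were higher and none lower with Nfya, and 1 was higher and 2 lower with Nfe2l1. Mastl, the Greatwall kinase that shields mitotic phosphates from a phosphatase, rose with both (0.67 ± 0.06 and 0.41 ± 0.06). Btrc, the ubiquitin ligase adaptor that targets WEE1 and CDC25A, rose by 0.24 ± 0.04 and 0.44 ± 0.04. Fbxw11, of the same group and named here after its values were seen, was not called with either virus. Cdc20, also of that group, changed by 0.31 ± 0.05 and -0.62 ± 0.06. Fbxo5, an inhibitor of the mitotic ubiquitin ligase, rose by 0.83 ± 0.08 with Nfya and fell by 0.35 ± 0.10 with Nfe2l1. Among 7 genes of the phosphopeptide-binding YWHA family and Sfn, whose products hold CDC25 proteins in the cytoplasm, 1 was lower with Nfya (27.9% of all genes), and with Nfe2l1 1 was higher and 2 were lower (28.9% and 29.7%). Calls in this group were lost in several of the 22 alternatives: Sfn with Nfya in 5, and with Nfe2l1 Ywhab in 4 and Ywhae in 10.

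Plk2 and Plk3 are often grouped with immediate early genes. Of 10 immediate early and stress genes, 1 was higher and 5 lower with Nfya (24.3% and 27.9% of all genes), and none was called higher and 4 lower with Nfe2l1 (28.9% and 29.7%). Fos stood at 31.8 CPM in GFP, 12.4 with Nfya and 11.1 with Nfe2l1 (log2 fold changes -1.35 ± 0.09 and -1.50 ± 0.09), and Fosb at 14.6, 8.74 and 4.70 CPM. The arrest gene Gadd45b changed by -0.28 ± 0.04 and -0.50 ± 0.05. Of 8 regulators of G2 and M promoters, 3 were higher and none lower with Nfya (24.3% and 27.9% of all genes). With Nfe2l1 3 were higher and 3 lower (28.9% and 29.7%). The group holds Nfya itself, which is among those called higher with either virus. Foxm1 rose by 0.66 ± 0.04 with Nfya and fell by 0.43 ± 0.05 with Nfe2l1, Mybl2 rose by 0.92 ± 0.05 and 0.15 ± 0.06, and Lin54 rose by 0.51 ± 0.03 with Nfe2l1. Lin9, named here after its values were seen, fell by 0.78 ± 0.08 with Nfe2l1. The call of Mybl2 with Nfe2l1 was lost in 7 of 22 alternatives, among them DESeq2 and without GFP replicate 1 or 3 or Nfe2l1 replicate 1.

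**Figure D4:**
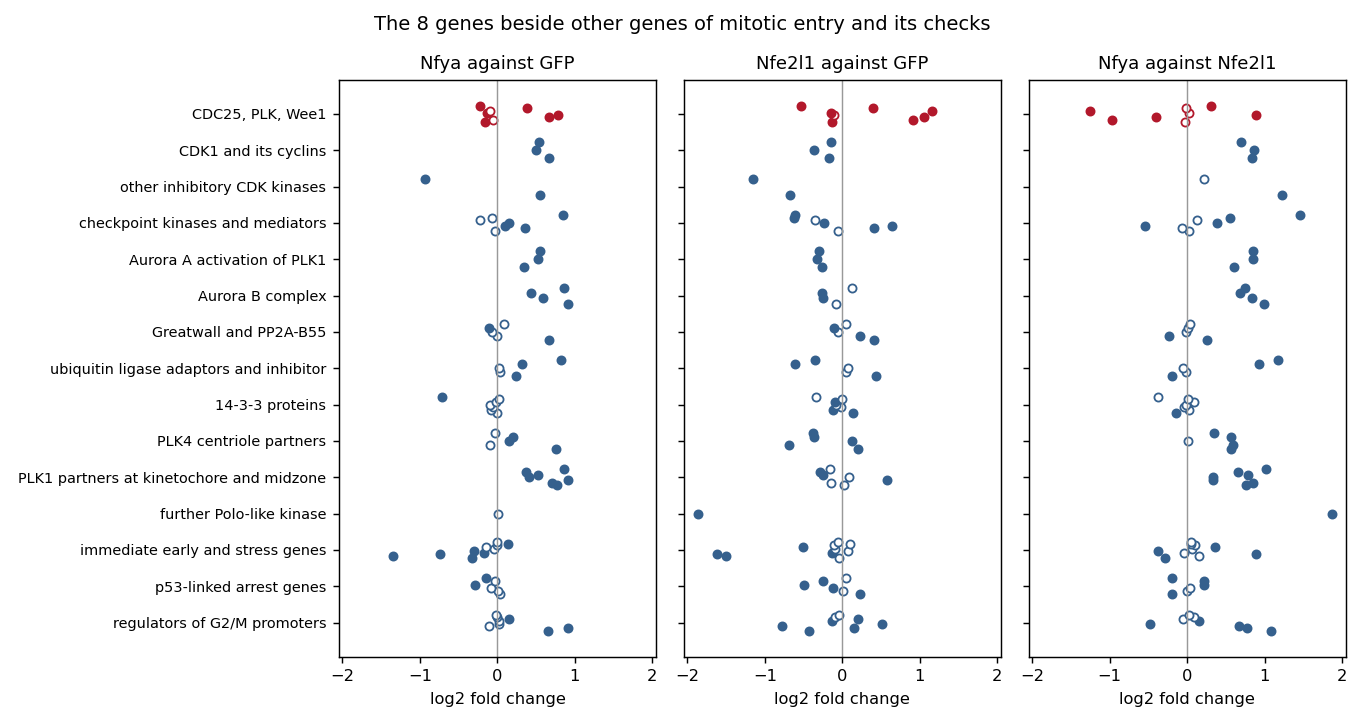
Log2 fold change (horizontal axis) of the 8 genes (red) and of 73 other genes in 14 groups (blue) in the 3 comparisons, filled where the adjusted p was below 0.05. With Nfya the CDK1, Aurora and PLK1 partner groups lie right of 0 beside Plk1, and with Nfe2l1 most of them lie left of 0, where Cdc25b, Cdc25c and Plk3 lie at 0.91 to 1.16.

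Transcripts of other cell types moved with the viruses. Fewer cells of a type and less RNA per cell cannot be told apart in whole cultures. Over all genes 24.3% were called higher and 27.9% lower with Nfya, and 28.9% and 29.7% with Nfe2l1. Of 9 fibroblast markers 8 were called higher and 1 lower with Nfya (Col1a2, groups overlapping), and 8 higher with Nfe2l1. Their summed level was 1048 to 1109 CPM in GFP, 1932 to 1954 with Nfya and 1630 to 1758 with Nfe2l1. Endothelial markers (6 genes) summed to 284.3 to 296.7, 363.4 to 380.5 and 404.1 to 423.0 CPM, and epicardial markers (6 genes) to 91.0 to 98.9, 111.9 to 132.6 and 137.8 to 155.3 CPM. Within the endothelial list 4 genes were called higher and 1 lower with either virus, the lower one being Kdr (163.1, 76.99 and 89.96 CPM). In the epicardial list 5 were higher and 1 lower with either virus. The lower one was Krt18 (73.6, 40.75 and 42.8 CPM), the most abundant of that list in GFP, and Msln rose most (1.29, 12.3 and 23.8 CPM). Smooth muscle and pericyte markers (8 genes) summed to 968.0 to 979.8, 1057 to 1076 and 740.4 to 763.5 CPM. Of the 7 tested, 5 were higher and 1 lower with Nfya, and 1 higher and 3 lower with Nfe2l1. Their members went both ways: Cspg4 stood at 432.6, 333.3 and 234.99 CPM, and Pdgfrb at 41.7, 114.5 and 73.4 CPM. Col1a2, Kdr, Krt18, Msln, Cspg4 and Pdgfrb were named after their values were seen. Macrophage and leukocyte markers (7 genes) summed to 44.2 to 59.3, 52.5 to 62.5 and 65.2 to 71.5 CPM, and C1qb had 10 counts in all 9 libraries. No defining marker of these lists was at 0 in all libraries. The part of these cells in the changes of the 8 genes was not tested.

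For each of the 8 genes the 3 genes with the most similar profile were taken, by Pearson's r of log2 CPM over the 9 libraries. These r describe mainly the 3 group levels, and 78 (Plk2) to 499 (Cdc25b) of 14150 genes reached an r of 0.95. Nearest to Plk1 were Cdca2, a phosphatase anchor on mitotic chromatin (r = 0.993), the DNA polymerase alpha gene Pola1 (0.993) and the transcription factor gene Snai2 (0.991). Among the nearest to Cdc25b were Abca4 and the tubulin gene Tubb3 (each 0.997). Nearest to Plk3 were the formin gene Fmn1, the lipid enzyme gene Sgpl1 and Lpin3 (each 0.996). Cdc25b and Plk3 had an r of 0.990 with each other, which placed Cdc25b 16th among the genes nearest to Plk3. Nearest to Cdc25c were Polr3b, Myadml2 and Rgs3 (0.992, 0.992 and 0.991), and nearest to Plk4 were Ptpn7, Gfpt2 and Edem1 (0.996, 0.994 and 0.994). Wee1 was nearest to Cspg4 (also in the smooth muscle and pericyte list), Parm1 and Sfrp1 (0.995, 0.995 and 0.994), Cdc25a to Btbd11, Arpp21 and Pim2 (0.995, 0.993 and 0.991), and Plk2 to Klhdc3, Ptp4a2 and Bzw1 (0.990, 0.989 and 0.988). None of the 24 nearest genes was one of the 8.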

How the data were processed

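Stranded mRNA libraries (9, 3 per virus) were sequenced. The authors deposited a table of raw counts per gene symbol and a table of RPKM (counts scaled by gene length and library total), with the gene length in bases. The authors' deposited edgeR tables give log2 fold changes and log2 CPM, a likelihood ratio score, and p-values with FDR. Quality control with FastQC 0.11.4, counting with featureCounts 1.6.0 and testing with edgeR 3.20.5 are listed in the submitters' processing notes, with builds GRCm38, mm10 and rn6. Which aligner, annotation and strand setting were used is not given in the sources used here, so no coordinates of the counted genes are given (those of promoters are RefSeq's), and reads of overlapping genes cannot be separated.

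The deposited counts went through edgeR 4.0.16 (R 4.3.3): filterByExpr by group, TMM scaling and the quasi-likelihood F test. A single model held the 9 libraries, with a mean for each virus. The filter kept 99.8% of counts. P-values were adjusted by Benjamini-Hochberg over all 14151 genes, at 0.05. Standard errors were derived from F and the log2 fold change (its size divided by √F), and 95% intervals use the fit's degrees of freedom. Counting errors treat reads as separate molecules, which libraries lacking molecular identifiers cannot show. Alternatives were other scalings, filters and thresholds, DESeq2 1.42.0, the likelihood ratio test, limma 3.58.1 on log2(RPKM + 1) and log2(RPKM + 0.1), only the 6 libraries compared, a replicate block and each library left out. The members, lists and motifs were chosen with earlier results of these data known. Named genes were the 8 members, Nfya, Nfe2l1, up to 3 genes with the smallest p per group of the pathway list, and the 3 nearest genes by r, of which 1 is not reported here. Of the lists, 3 pathway genes (Ccnb2, Cep152 and E2f1) and the endothelial marker Pecam1 were not analysed here.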

Additional observations from a re-analysis of the deposited data

How the results depend on the processing

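Over 22 alternatives, 510 of 528 values of the 8 genes kept their direction and their side of the threshold. Another 5 lost a call and 13 changed sign, the latter among differences that were not called. The lost calls were the 4 of Plk2 with Nfya against GFP and the 1 of Cdc25a with Nfe2l1 against GFP given above. Leaving out 1 library moved Cdc25b with Nfya against GFP between -0.0921 and 0.0338. In Nfya against Nfe2l1, Cdc25a was 0.00719 with upper quartile factors and -0.0301 to 0.00853 with 1 library left out. Plk4 there was 0.0192 with upper quartile factors, 0.00558 with library totals only, 0.00704 when a mean of 5 CPM was required, 0.00538 and 0.00554 with limma on log2(RPKM + 1) and log2(RPKM + 0.1), and -0.0382 to 0.0105 with 1 library left out. For these the cause was not tested.

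Pathway genes lower with Nfya numbered 6 to 10 when 1 library was left out, and those lower with Nfe2l1 numbered 22 with DESeq2. DESeq2 called 2486 genes lower with Nfya against GFP (3953 in edgeR) and 2392 lower with Nfya against Nfe2l1 (3597 in edgeR). The Nfe2l1 gene, with Nfe2l1 against GFP, was 0.0281 with no filter, 0.0114 when a mean of 5 CPM was required, 0.00488 with the ceiling below and -0.0219 to 0.0271 with 1 library left out. Plk5 with Nfya against GFP was -0.00147 with that ceiling and -0.163 to 0.188 with 1 library left out. The cause was not tested.

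The groups share replicate numbers in the labels, which state no pairing. Same-numbered libraries of different groups correlated at -0.0655 to 0.0485 in their deviations from group means, and differently numbered ones at -0.0666 to 0.0604. With 3 libraries per group and a spread often near the counting error, these values cannot tell whether the numbers pair the libraries. With a replicate block the log2 fold changes were 0.78 for Plk1 and 0.66 for Cdc25c with Nfya and 1.16 for Plk3 and -0.54 for Wee1 with Nfe2l1, and the block changed no call of the 8 genes. An assumed ceiling of 1.6 counts per base of gene length, inverted, was chosen after seeing the data, and gave log2 fold changes of -0.16 with Nfya and -0.18 with Nfe2l1 for Plk2.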

Other observations

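Plk5, the further Polo-like kinase gene, lacks a complete kinase domain in mammals and is best known from neurons. It was counted in all 9 libraries, at 14.2, 12.6 and 8.67 CPM in GFP, 10.9, 12.5 and 12.5 with Nfya and 2.02, 3.92 and 3.82 with Nfe2l1. The Nfe2l1-labelled libraries lay below the other 6. Plk5 was 3.63-fold lower with Nfe2l1 than with GFP (log2 fold change -1.86 ± 0.23, adjusted p = 3.30e-06, edgeR) and did not pass the test with Nfya (0.00 ± 0.18, adjusted p = 0.990). With Nfe2l1 it rests on 13 to 28 counts per library. Plk5 and Plk3 thus moved in opposite directions with Nfe2l1.

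Checkpoint genes that restrain CDC25 proteins after DNA damage were called in part. Chek1, whose kinase acts on CDC25 proteins directly, was called in no comparison (log2 difference 0.02 ± 0.03 between the factor viruses, adjusted p = 0.561). Chek2 rose by 0.35 ± 0.12 with Nfya and by 0.42 ± 0.12 with Nfe2l1, and was not called between them (adjusted p = 0.689, edgeR). The call of Chek2 with Nfya was lost in 6 of 22 alternatives, among them DESeq2 and without GFP replicate 3 or Nfya replicate 1 or 3. Both were named after their values were seen. Clspn, the adaptor that presents CHK1 to its activating kinase, rose by 0.84 ± 0.07 with Nfya and fell by 0.61 ± 0.09 with Nfe2l1. Atr, that activating kinase, rose by 0.64 ± 0.04 with Nfe2l1, where Topbp1, its activator, fell by 0.62 ± 0.03. Of the 7 genes of this group, 4 were higher and none lower with Nfya, and 2 were higher and 3 lower with Nfe2l1 (24.3%, 27.9%, 28.9% and 29.7% of all genes in the same order). Among the 4 higher with Nfya, the call of Atr (0.10 ± 0.04) was lost in 9 of 22 alternatives. In the direct comparison 3 were higher with Nfya and 1 with Nfe2l1 (25.2% and 25.4% of all genes), and 3 were not called.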
